A study of Rattus norvegicus with 31 samples.

Results

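The genes described here carry amino acids, glucose and lactate across cell membranes. They were taken as every probe set of the array that carries 1 gene symbol in the platform annotation and whose symbol begins with Slc1a, Slc2a, Slc3a, Slc7a, Slc16a, Slc36a, Slc38a or Slc43a followed by a number, without the glial glutamate transporters Slc1a2 and Slc1a3. The rule gave 42 probe sets of 41 genes, out of 9769 genes named by 11880 single-symbol probe sets. By family there were 12 genes of Slc7a, 7 each of Slc2a and Slc38a, 6 of Slc16a, 3 each of Slc1a and Slc36a, 2 of Slc3a and 1 of Slc43a. Slc2a4 was represented by 2 probe sets and every other gene by 1. The pattern of the symbol also takes in Slc7a6os, which is named for its place beside Slc7a6 on the opposite strand and is thought to help bring RNA polymerase II into the nucleus, so that it is no transporter.

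The RNA came from tail motor neurons of adult male Wistar rats, which had been labelled with the retrograde tracer Fluoro-Gold, injected into the muscle and intraperitoneally, and laser microdissected out of frozen sections of S3 and S4. The groups were uninjured animals (Control, n = 4) and animals taken 2 days (Spi-2, n = 6), 7 days (Spi-7, n = 5), 21 days (Spi-21, n = 8) and 60 days (Spi-60, n = 8) after the spinal cord had been completely transected at S2. Each array holds the amplified RNA of 1 animal. The comparisons ask how the motor neurons below the lesion change early and late, while the paralysed tail becomes spastic. The Spi-21 and Spi-60 arrays were made for an earlier study and the other 3 groups for the present one, so that in any difference between Control and the late groups the injury and the study cannot be told apart.

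The array medians lay between 5.95 and 6.10 on the log2 scale and any 2 arrays correlated at 0.875 to 0.989. The 8 motor neuron markers measured had a mean level of 10.26 to 11.19 on every array, with neurofilament (Nefh) at 14.14 and peripherin (Prph) at 12.75 over all arrays, although Isl1 averaged only 5.70. Markers of other cells were read in the same way, without a test of detection: the astrocyte markers averaged 7.84 to 8.97 per array, the oligodendrocyte markers 7.12 to 8.43, the interneuron markers 5.73 to 7.26, the endothelial markers 5.55 to 6.78 and the markers of pericytes and smooth muscle 5.33 to 6.38. Over all arrays single astrocyte markers ran from 5.13 (Aqp4) to 11.95 (Aldoc) and oligodendrocyte markers from 5.23 (Mobp) to 11.33 (Cldn11). Gfap averaged 8.87 in Control and 11.32 in Spi-2. In such pools a lower value can mean less RNA per neuron or less RNA from cells that were cut out along with it, and these cannot be told apart. The gap between the 3′ and 5′ control sets of Gapdh, which widens as amplified RNA gets shorter, was 1.80 to 2.50 in Control, 2.30 to 3.38 in Spi-2, 2.38 to 3.33 in Spi-7, 1.13 to 3.54 in Spi-21 and the highest, 3.00 to 3.97, in Spi-60, so that every Spi-60 array lay above every control.

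Cells take up glucose by facilitated diffusion through some of the GLUT proteins of the Slc2a family. They exchange lactate and pyruvate, together with a proton, through some of the monocarboxylate transporters of the Slc16a family. In nervous tissue lactate released by glia is thought to feed neurons and their axons. Amino acids move through several families: the Slc1a proteins carry glutamate or small neutral amino acids with sodium, the Slc38a proteins (SNATs) couple glutamine, alanine and other neutral amino acids to sodium, the Slc36a proteins couple small amino acids to protons, and most Slc7a proteins are light chains that reach the membrane only when bound to a heavy chain, Slc3a1 or Slc3a2. Transporters in the lysosome membrane return amino acids from degraded proteins to the cytosol, where amino acid levels are read by the kinase complex mTORC1.

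For most of these transporters no change passed the test. Of the 42 probe sets, 10 passed the test in at least 1 comparison with Control, among them that of Slc7a6os, and 32 in none. The share of all probe sets that passed in at least 1 was not counted, so this count is no result about the members. For each comparison the share of all is given below. Slc38a2, the sodium-coupled transporter SNAT2, was the member that fell furthest, to 0.536 times the control level late. Slc16a1, the lactate transporter MCT1, fell late to 0.617 times the control level. The fructose transporter Slc2a5 rose early, to 1.47 times the control level, and the heavy chain Slc3a2 rose at day 2, to 1.41 times the control level. Slc36a1, Slc2a8 and Slc38a7 were 1.33, 1.29 and 1.21 times the control level late.

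Over the 5 groups, limma's moderated F-test at a false discovery rate of 0.02 called 3 of the 42 member probe sets (7.14%), Slc3a2, Slc2a5 and Slc7a6os, beside 16.2% of all 12913 probe sets tested. The call of Slc7a6os (adjusted p = 0.0162) was kept in 18 of 38 alternatives, and leaving out any of 16 arrays ended it (0.0201 to 0.034). Among Control, Spi-2 and Spi-7 alone, the arrays of the present study, it called 1 member, Slc2a5, and 3.01% of all. Against Control at an adjusted p under 0.05, 2 members were higher and 2 lower at day 2 (3.9% and 4.98% of all probe sets), 1 higher and none lower at day 7 (0.914% and 1.67%), 3 higher and 2 lower at day 21 (5.94% and 10.7%) and 3 higher and 4 lower at day 60 (7.2% and 9.89%). In the mean of days 2 and 7, called early below, 1 was higher and 1 lower (3.52% and 4.96% of all). In the mean of days 21 and 60, called late, 4 were higher and 3 lower (8.07% and 12.4%). In each comparison the share of members called was near that of all probe sets or below it. With the Gapdh gap as a covariate no member was called at day 60, and late the calls of Slc16a1, Slc2a5, Slc36a1, Slc38a7 and Slc7a6os were lost (limma, adjusted p = 0.0727 to 0.232). All probe sets called then fell from 2207 to 267 at day 60 and from 2643 to 1216 late.

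Between day 2 and day 7 no member differed and 0.0% of all probe sets did, and at an unadjusted p under 0.05 there were 1 member and 460 probe sets in all. Between day 21 and day 60 no member and 9 probe sets in all (0.0697%) passed the test, with 2 members and 1563 probe sets under 0.05 unadjusted. The median change of the 42 was 0.07 (log2) early and 0.06 late, beside -0.0027 and 0.011 for all probe sets. The median size of a change, whatever its sign, was 0.16 early and 0.15 late for the members, beside 0.15 and 0.18 for all. The 32 members that passed no test had changes against Control between -0.35 and 0.88, so that they were not shown to be unchanged.

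**Figure D1:**
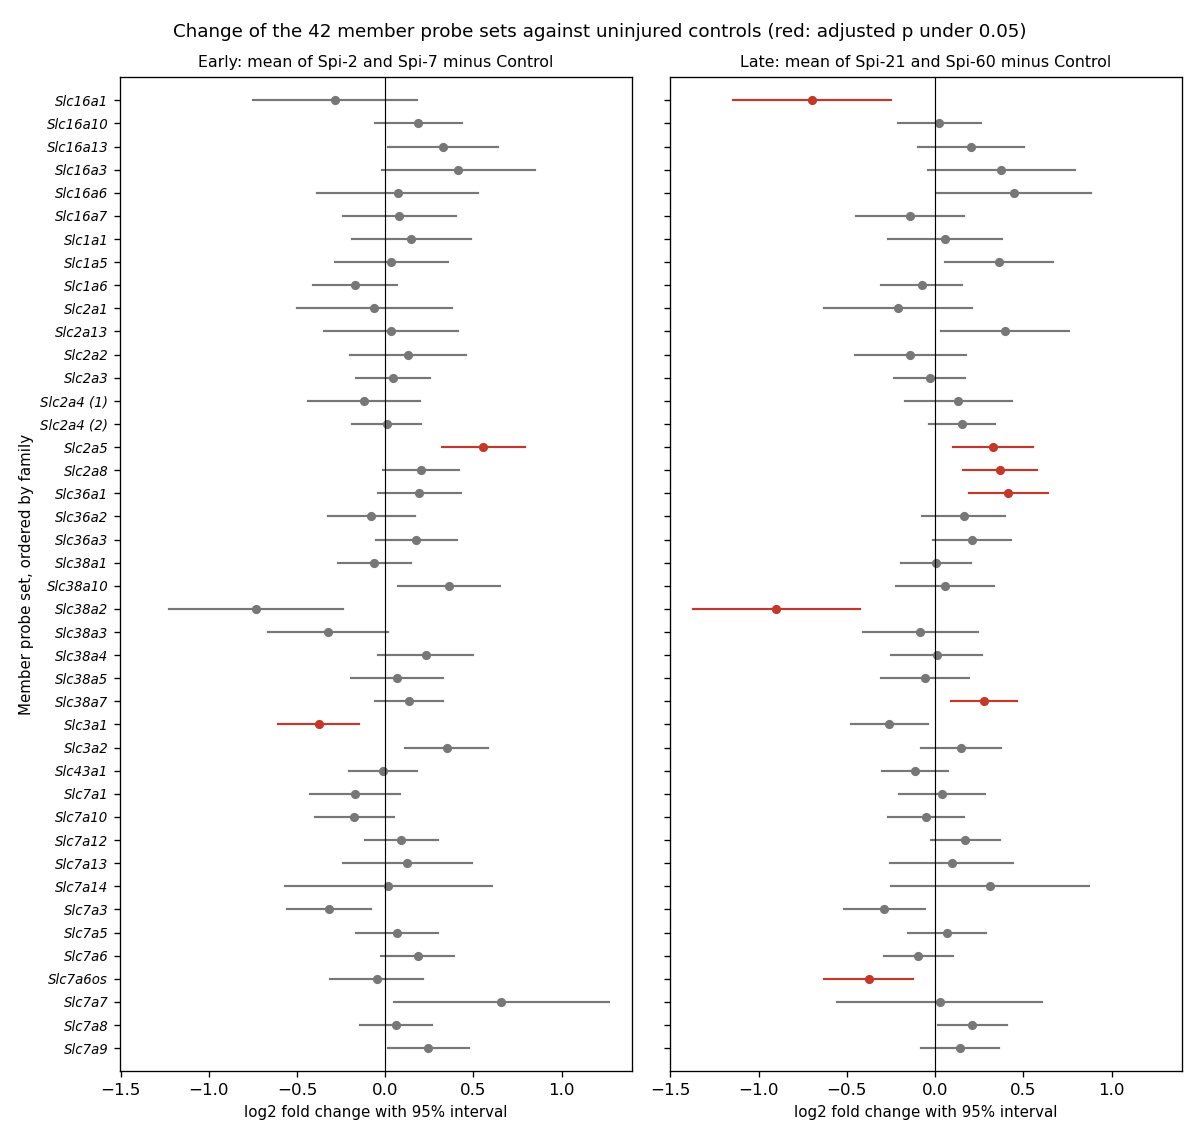
Log2 fold change of the 42 member probe sets, ordered by family, in the mean of Spi-2 and Spi-7 (left, n = 11 animals) and in the mean of Spi-21 and Spi-60 (right, n = 16) against Control (n = 4), where bars are 95% intervals of the limma fit and red marks an adjusted p under 0.05. Slc2a5 and Slc3a1 are red early, and 7 members are red late, with Slc38a2 farthest to the left at -0.90.

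The heavy chains stand first, since most Slc7a transporters depend on them. Slc3a2 (4F2hc, CD98) partners Slc7a5, Slc7a6, Slc7a7, Slc7a8, Slc7a10 and other light chains. Its log2 values were 7.45, 7.26, 7.17 and 7.06 in the 4 controls. In Spi-2 they ran from 7.45 through a median of 7.73 to 7.92, and in Spi-7 they were 7.74, 7.41, 7.38, 7.45 and 7.24. Spi-21 ran from 6.84 (median 7.20) to 7.51 and Spi-60 from 7.32 (median 7.56) to 7.69. Of the Spi-2 animals 5, and of the 8 Spi-60 animals 6, lay above every control, while the Spi-21 animals spread around them. The change was 0.49 ± 0.13 at day 2 (log2 fold change ± SE, limma, adjusted p = 0.0133), 0.21 at day 7 (adjusted p = 0.478), -0.01 at day 21 (adjusted p = 0.951) and 0.31 at day 60 (adjusted p = 0.0774). The difference between day 60 and day 21, 0.32, did not pass either (adjusted p = 0.151). The day 2 call was lost without Control replicate 4 (0.43, adjusted p = 0.0553) and with the Gapdh gap as a covariate (0.38, adjusted p = 0.0773).

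Slc3a1 (rBAT), the heavy chain of the cystine and dibasic amino acid transporter best known from kidney and gut, moved the other way. Its probe set averaged 5.64 over all arrays, where the array medians lay between 5.95 and 6.10, and its detection was not assessed. Slc3a1 stood at 5.98, 6.02, 5.83 and 5.80 in Control and between 5.37 and 5.55 in Spi-2 (median 5.53), so that all 6 Spi-2 animals lay below every control. The 5 Spi-7 values were 5.43, 5.74, 5.72, 5.59 and 5.32, also all below. Spi-21 ran from 5.39 to 6.27 (median 5.62), with 5 animals below every control and 1 above, and 7 of 8 Spi-60 animals lay below it. Slc3a1 changed by -0.40 ± 0.12 at day 2 (limma, adjusted p = 0.0357), -0.38 early (adjusted p = 0.0332) and -0.34 at day 60 (adjusted p = 0.046), and by -0.35 at day 7 (adjusted p = 0.16). These calls sat close to the threshold. The early one was lost without Control replicate 1, 2 or 3 or Spi-7 replicate 1 (adjusted p = 0.0527 to 0.118), the day 2 one without Control replicate 1, 2 or 3 or Spi-2 replicate 3, 5 or 6 (0.0508 to 0.112), and the day 60 one without any of 14 arrays (0.0505 to 0.141).

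Among the light chains and cationic transporters of Slc7a, 11 genes besides Slc7a6os, 1 passed a test. Slc7a3 (CAT3), a neuronal transporter of arginine and lysine, had values of 5.91, 5.96, 6.23 and 5.72 in Control and 5.45 to 5.71 (median 5.63) in Spi-60, with no overlap. Its change at day 60 was -0.35 ± 0.12 (limma, adjusted p = 0.0495), and leaving out any of 24 arrays ended that call (adjusted p = 0.0506 to 0.218). At day 7, with values of 5.65, 5.67, 5.61, 5.68 and 5.39 that were all below Control, the change of -0.36 did not pass (adjusted p = 0.173). The probe set of Slc7a3 averaged 5.7 over all arrays, and its detection was not assessed.

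The other light chains passed no test against Control. Slc7a5 (LAT1), which brings in leucine and other large neutral amino acids, changed by 0.07 early (95% interval -0.16 to 0.30) and 0.07 late (-0.15 to 0.29). Slc7a6 (y+LAT2), which exchanges arginine for glutamine, came next after the called members in the F-test. Its controls stood at 8.14, 8.14, 8.13 and 8.24, and the Spi-7 animals at 8.58, 8.51, 8.52, 8.20 and 8.29. Spi-2 ran from 7.98 (median 8.29) to 8.56, Spi-21 from 7.64 (median 8.16) to 8.36 and Spi-60 from 7.94 (median 8.05) to 8.13. All but 1 of the Spi-7 animals lay above every control, and the change of 0.26 had an adjusted p of 0.273. Slc7a10 (Asc-1), which exchanges D-serine and glycine, had control values of 6.49, 6.26, 6.21 and 6.03, and Spi-2 values of 5.82 to 6.05 (median 6.01). In Spi-7 it stood at 5.99, 5.90, 6.09, 6.34 and 6.51, in Spi-21 at 5.64 to 6.30 (median 6.13) and in Spi-60 at 6.14 to 6.44 (median 6.35). No Spi-2 animal was above 6.05, where 3 of the 4 controls stood at 6.21 or more, and the day 2 change of -0.27 did not pass (adjusted p = 0.167).

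Slc7a6os, the neighbour of Slc7a6 in the genome with 0 shared bases in RefSeq, fell late. The controls had 7.53, 7.52, 7.26 and 7.46 and the Spi-7 animals 7.88, 7.56, 7.50, 7.34 and 7.19. Spi-2 ran from 6.84 (median 7.39) to 7.66, Spi-21 from 6.78 (median 7.20) to 7.35 and Spi-60 from 6.79 (median 7.03) to 7.21, so that all 8 Spi-60 animals lay below Control. The change was -0.43 ± 0.14 at day 60 (limma, adjusted p = 0.0267) and -0.38 ± 0.12 late (adjusted p = 0.0281), where that of Slc7a6 was -0.09 (adjusted p = 0.526), and the difference between these changes was not tested. A further quantile normalization ended the late call (-0.26, adjusted p = 0.136), as did leaving out Control replicate 1, 2 or 4 (adjusted p = 0.0689 to 0.0975).

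The sodium-coupled neutral amino acid transporters held the member with the lowest change. Slc38a2 had log2 values of 9.42, 9.74, 9.73 and 9.58 in Control. In Spi-2 it ran from 8.21 (median 8.63) to 9.42, and in Spi-7 it stood at 9.16, 9.38, 9.31, 8.76 and 8.41. Spi-21 lay between 8.57 and 8.97 (median 8.72) and Spi-60 between 7.74 and 9.40 (median 8.81). Of the 27 injured animals 26 lay below every control, the exception being in Spi-2. The Spi-21 animals were close together (SD 0.15) while those of Spi-60 spread widely (SD 0.62), with 4 of them between 9.13 and 9.40.

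Against Control the change of Slc38a2 was -0.85 ± 0.27 at day 2 (limma, adjusted p = 0.0406), -0.61 at day 7 (adjusted p = 0.271), -0.86 at day 21 (adjusted p = 0.0192), -0.94 at day 60 (adjusted p = 0.0107) and -0.90 ± 0.23 late (adjusted p = 0.0063). The early change, -0.73, did not pass (limma, adjusted p = 0.0533). Neither did the F-test over the 5 groups (adjusted p = 0.0393) nor that within the present study (adjusted p = 0.1045), both at a threshold of 0.02. The late call of Slc38a2 was kept under all 38 alternatives tried, while the day 60 call was lost with the Gapdh gap as a covariate (-0.99, adjusted p = 0.109). The day 21 call was lost without Control replicate 2 (-0.82, adjusted p = 0.0635) or replicate 3 (-0.83, adjusted p = 0.0592), and leaving out any of 8 arrays ended the day 2 call (adjusted p = 0.0596 to 0.108). A further quantile normalization ended both (limma, adjusted p = 0.0536 at day 21 and 0.0719 at day 2). Leaving out the first 3 Spi-21 arrays also ended the day 21 call (0.0759). The Gapdh gap (0.0703) and the replicate block (0.0735) each ended the day 2 call. The oligodendrocyte markers moved the same way, with 5 of 9 called lower late and 1 of 9 at day 2. Of all probe sets 12.4% were lower late and 4.98% at day 2. The mean level of these markers was 7.69 to 8.43 in Control, 7.12 to 7.80 at day 21 and 7.36 to 8.18 at day 60. Of the 8 interneuron markers 3 were called lower late and 2 at day 2. Among the 8 motor neuron markers 1 was called lower and 1 higher, both late and at day 2. One of the 8, Slc5a7, averaged 11.54 in Control and 10.36 to 10.5 in the injured groups. The part of any of these cells in the fall of Slc38a2 was not tested.

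Slc38a1 (SNAT1), the related glutamine transporter of neurons, had a change of -0.06 early (95% interval -0.27 to 0.14) and 0.01 late (-0.19 to 0.20), an interval that holds no change of the size seen in Slc38a2. Slc38a10 had controls at 7.22, 7.08, 7.29 and 7.44, with 6.97 to 8.14 (median 7.83) in Spi-2 and 7.48, 7.44, 7.57, 7.73 and 7.44 in Spi-7. Spi-21 ran from 6.94 (median 7.33) to 7.54 and Spi-60 from 7.06 (median 7.31) to 7.63. Its day 2 values reached above Control in 5 of 6 animals, and the change of 0.45 did not pass (limma, adjusted p = 0.0685).

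**Figure D2:**
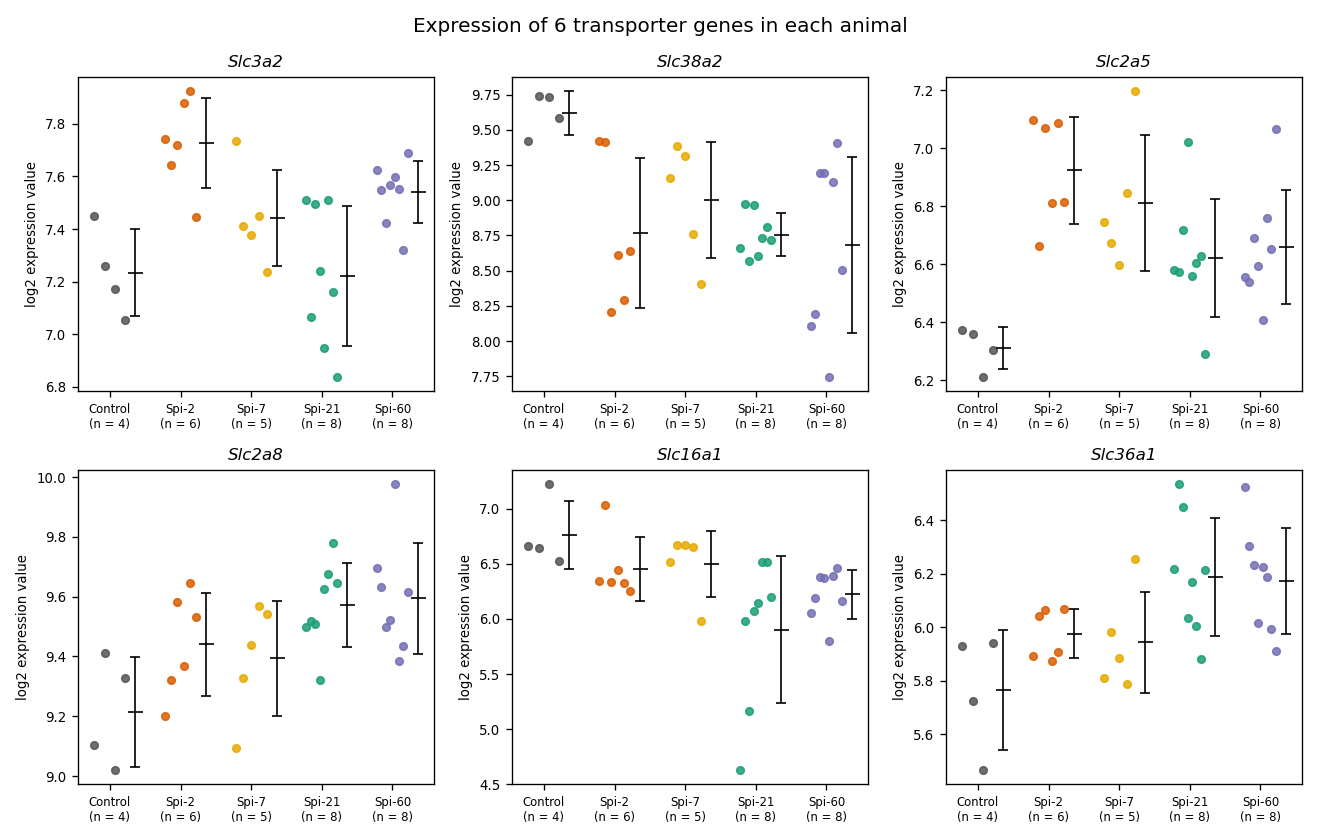
Log2 expression values of Slc3a2, Slc38a2, Slc2a5, Slc2a8, Slc16a1 and Slc36a1, where each point is 1 animal, and the bar beside each group gives the mean and SD. Slc38a2 lies below every control in 26 of 27 injured animals and Slc2a5 above every control in 26 of 27, while Slc3a2 is above every control in 5 of 6 Spi-2, 3 of 8 Spi-21 and 6 of 8 Spi-60 animals.

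Of the 4 members that rose late, 3 are known from lysosomes or late endosomes, which was seen only after their values were known and was not tested. The other was Slc2a5, described below. Slc36a1 (PAT1) and Slc38a7 (SNAT7) carry amino acids out of the lysosome, and Slc2a8 (GLUT8) is a glucose transporter held in late endosomes and lysosomes. Slc36a1 had values of 5.93, 5.73, 5.47 and 5.94 in Control, 5.87 to 6.07 (median 5.98) in Spi-2, and 5.81, 5.98, 5.88, 5.79 and 6.25 in Spi-7. It ran from 5.88 (median 6.19) to 6.53 in Spi-21 and from 5.91 (median 6.21) to 6.53 in Spi-60. In each late group 7 of 8 animals lay above every control. The late change was 0.42 ± 0.11 (limma, adjusted p = 0.0078), with 0.42 at day 21 (adjusted p = 0.0165) and 0.41 at day 60 (adjusted p = 0.018).

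Slc2a8 stood at 9.10, 9.41, 9.02 and 9.33 in Control, at 9.20 to 9.64 (median 9.45) in Spi-2 and at 9.09, 9.33, 9.44, 9.57 and 9.54 in Spi-7. Spi-21 ran from 9.32 (median 9.57) to 9.78 and Spi-60 from 9.38 (median 9.57) to 9.97, so that 14 of the 16 late animals lay above every control. The change was 0.37 ± 0.10 late (limma, adjusted p = 0.0106), 0.36 at day 21 (adjusted p = 0.0276) and 0.38 at day 60 (adjusted p = 0.0178). Slc38a7 had 5.63, 5.57, 5.70 and 5.63 in Control and 5.67 to 6.15 (median 5.92) in Spi-21, with 5.74 to 6.31 (median 5.82) in Spi-60. Only 1 late animal was not above every control. Its change was 0.28 ± 0.09 late (adjusted p = 0.0279), 0.29 at day 21 (adjusted p = 0.0408) and 0.26 at day 60 (adjusted p = 0.0649). The probe set of Slc38a7 averaged 5.82 over all arrays, and its detection was not assessed.

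Control replicate 3 had the lowest value of both Slc36a1 and Slc2a8. Without it the late change fell to 0.32 for Slc36a1 (limma, adjusted p = 0.0746) and 0.30 for Slc2a8 (adjusted p = 0.0728), and both calls were lost. The late call of Slc2a8 was also lost without Control replicate 1 (0.33, adjusted p = 0.0506), and that of Slc38a7 without any 1 of the 4 controls (adjusted p = 0.0508 to 0.0985). The other lysosomal member, Slc7a14, changed by 0.31 late without passing (adjusted p = 0.454), and the other members of the Slc36a family, Slc36a2 and Slc36a3, by 0.16 and 0.21 (adjusted p = 0.34 and 0.172).

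RefSeq promoters (GRCr8, 250 bases before to 50 after the start) were held for 31 of the 41 genes. The 6 letters CACGTG, which read the same on both strands and are bound by bHLH factors such as the lysosomal regulator Tfeb, were looked for after the values had been seen. They stood in 7 of the 31 promoters (22.6%) and in 1826 of all 27457 promoters (6.65%). The 27457 were not limited to genes of the array, and no shares of promoters were compared by a test. The 7 included Slc36a1 with 2 matches and Slc38a7, both of which rose late, but also Slc16a1, which fell, and Slc7a14 and Slc7a5, which passed no test, with Slc1a6 and Slc43a1. Slc2a8 had none in this window. The stretches around the matches in 4 of these genes are shown 5′ to 3′ along the gene, with CACGTG in capitals, to let the setting of the shared letters be compared. They lie at chr10:39824974-39825034 (plus strand, Slc36a1), chr19:9215332-9215377 (plus strand, Slc38a7), chr2:113993685-113993730 (plus strand, Slc7a14) and chr2:194812424-194812469 (plus strand, Slc16a1).
Slc36a1: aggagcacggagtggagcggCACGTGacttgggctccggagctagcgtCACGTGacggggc
Slc38a7: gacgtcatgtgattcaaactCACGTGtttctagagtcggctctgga
Slc7a14: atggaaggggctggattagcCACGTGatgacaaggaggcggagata
Slc16a1: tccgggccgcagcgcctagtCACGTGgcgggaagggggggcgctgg

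The matches begin 41 and 13 bases before the start of Slc36a1, 26 before that of Slc38a7, 76 before that of Slc7a14 and 216 before that of Slc16a1. The shorter ACGTG, the core of the hypoxia response element, which every CACGTG contains, stood in 10 of the 31 promoters (32.3%) and 19.7% of all, in Slc2a1 and Slc16a7 among others. TGATGNAAN, the composite C/EBP and ATF site through which amino acid shortage acts, stood in 2 (6.45%), Slc38a1 and Slc7a1, and in 3.8% of all promoters, both strands counted. In Slc38a1, at chr7:129681515-129681563 (minus strand), it begins 142 bases before the start, and in Slc7a1, at chr12:11664438-11664486 (plus strand), 30 bases before it. Both are shown with the 9 letters in capitals, as the only matches in this window of the 31 promoters held. The rest of each gene and the members without a promoter were not searched, so that other members may carry the site.
Slc38a1: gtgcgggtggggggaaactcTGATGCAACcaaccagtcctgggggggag
Slc7a1: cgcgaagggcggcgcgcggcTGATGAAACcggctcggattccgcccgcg

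Neither gene passed a test. Slc38a1 is described above, and Slc7a1 (CAT1), the widespread arginine and lysine transporter, changed by -0.17 early (limma, adjusted p = 0.448) and 0.04 late (adjusted p = 0.842).

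Of the hexose transporters, Slc2a5 (GLUT5) passed the test in more comparisons than any other member. It carries fructose, and in brain it is known as a gene of microglia. Its log2 values were 6.37, 6.36, 6.21 and 6.30 in Control, 6.66 to 7.09 (median 6.94) in Spi-2 and 6.74, 6.67, 6.60, 6.84 and 7.20 in Spi-7. Spi-21 ran from 6.29 (median 6.59) to 7.02 and Spi-60 from 6.41 (median 6.62) to 7.07. Every early animal, and 15 of the 16 late ones, lay above every control. The change was 0.61 ± 0.13 at day 2 (limma, adjusted p = 0.0024), 0.50 ± 0.13 at day 7 (adjusted p = 0.0353), 0.31 at day 21 (adjusted p = 0.0731), 0.35 at day 60 (adjusted p = 0.0453) and 0.33 late (adjusted p = 0.0324). The F-test within the present study gave an adjusted p of 0.0153, which 11 of the arrays left out singly moved past 0.02 (0.0217 to 0.0726).

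The day 2 and early calls of Slc2a5 were kept under all 39 and 38 alternatives. The day 7 call was lost with any of 7 arrays left out (adjusted p = 0.0567 to 0.126), the day 60 call with any of 12 (0.05003 to 0.131), and the late call with any 1 of the 4 controls left out (0.059 to 0.115), the lowest change being 0.30 without Control replicate 3.

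The markers of microglia and macrophages moved with Slc2a5. Of the 13 listed 11 were measured, and 4 of them rose early and 3 late, with none lower, beside 3.52% and 8.07% of all probe sets called higher. Their mean level was 5.59 to 5.79 in Control, 6.16 to 7.20 in Spi-2, 5.85 to 6.68 in Spi-7, 5.59 to 7.08 in Spi-21 and then 5.87 to 7.08 at day 60. No marker was at 0, and the group means of Ptprc ran only from 5.02 to 5.19 and those of P2ry12 from 5.68 to 5.93. The animal with the highest marker mean was also the one with the highest Slc2a5 value in Spi-21 (replicate 4, 7.08 and 7.02) and in Spi-60 (replicate 8, 7.08 and 7.07). In the early groups it was not so. In Spi-7 replicate 5 had the highest Slc2a5 (7.20) and the lowest marker mean (5.85), and in Spi-2 replicate 4 had the highest marker mean (7.20) with a Slc2a5 value of 6.81, below those of replicates 1, 3 and 5. The part of these cells in the Slc2a5 values was not tested.

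**Figure D3:**
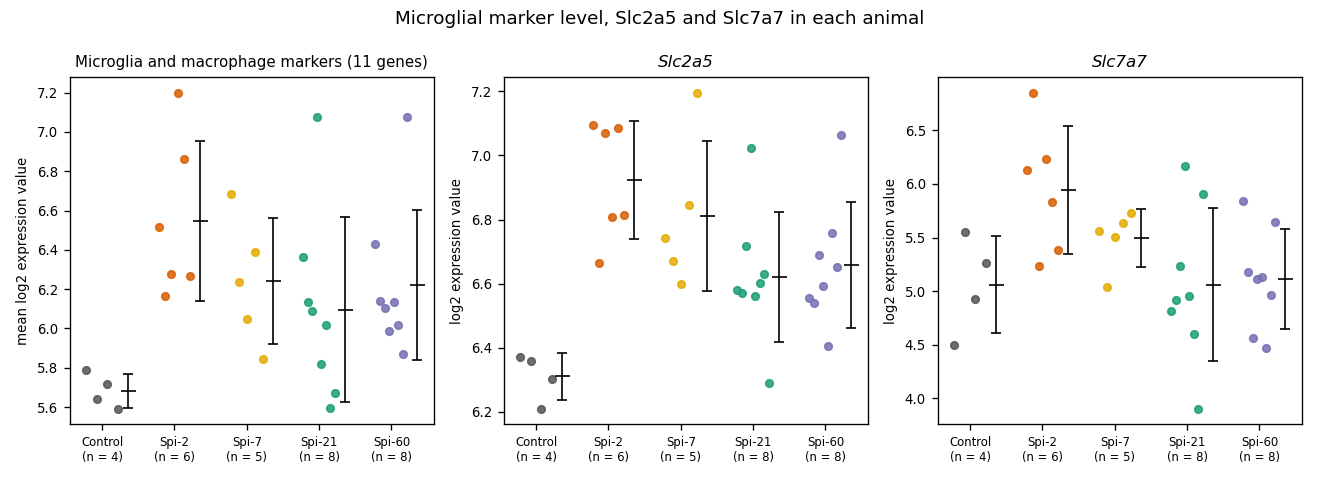
Mean log2 level of 11 microglia and macrophage markers (left) and log2 values of Slc2a5 (middle) and Slc7a7 (right), each point 1 animal, with the mean and SD beside each group. All 11 early animals exceed the 4 controls in the marker mean and in Slc2a5, whereas Slc7a7 overlaps with Control in every group.

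Slc7a7 (y+LAT1), an arginine exchanger with a known role in macrophages, was picked out after its values were seen, as the uncalled member with the highest change. It stood at 4.49, 5.55, 4.93 and 5.27 in Control and at 5.23 to 6.85 (median 5.98) in Spi-2, with 4 of 6 above every control. In Spi-7 it was 5.56, 5.04, 5.50, 5.64 and 5.73, in Spi-21 3.90 to 6.17 (median 4.94) and in Spi-60 4.47 to 5.84 (median 5.12). The day 2 change of 0.88 ± 0.33 did not pass (limma, adjusted p = 0.0902), and the late change was 0.03 (adjusted p = 0.961).

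The main carriers of glucose into brain showed no change that passed. Slc2a1 (GLUT1), found in the endothelium of the blood-brain barrier and in glia, changed by -0.06 early (95% interval -0.50 to 0.38) and -0.21 late (-0.63 to 0.21). Slc2a3 (GLUT3), the neuronal glucose transporter, changed by 0.04 early (-0.17 to 0.25) and -0.03 late (-0.23 to 0.17). Its probe set was dim, with a mean of 4.91 over all arrays, and 6 other members were also below 5. The insulin-dependent Slc2a4 (GLUT4) changed late by 0.13 and 0.15 in its 2 probe sets (adjusted p = 0.575 and 0.246).

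Of the 6 members of the Slc16a family 1 passed. Slc16a1 (MCT1), which in nervous tissue is known from endothelium and glia, above all oligodendrocytes, had log2 values of 6.66, 6.64, 7.22 and 6.52 in Control. Spi-2 ran from 6.25 (median 6.34) to 7.03 and Spi-7 was 6.52, 6.66, 6.67, 6.65 and 5.98. Spi-21 lay between 4.63 and 6.51 (median 6.11) and Spi-60 between 5.80 and 6.46 (median 6.28), so that all 16 late animals were below every control. The Spi-21 animals were spread far more widely (SD 0.66) than those of Spi-60 (SD 0.22), with replicates 1 and 3 at 4.63 and 5.16.

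Slc16a1 changed by -0.86 ± 0.24 at day 21 (limma, adjusted p = 0.0146), -0.54 at day 60 (adjusted p = 0.122) and -0.70 ± 0.22 late (adjusted p = 0.0223). Without Control replicate 3 the late change was -0.54 (adjusted p = 0.132) and the day 21 change -0.71 (adjusted p = 0.0783), and without the first 3 Spi-21 arrays the day 21 change was -0.47 (adjusted p = 0.0961). The oligodendrocyte markers, given beside Slc38a2 above, fell over the same days, with a median change of -0.57 late beside 0.011 for all probe sets. The endothelial markers had a median of -0.03 late with 1 of 6 called lower, beside 12.4% of all probe sets. Their part in the fall of Slc16a1 was not tested. Slc16a7 (MCT2), the neuronal lactate transporter, changed by 0.08 early (95% interval -0.24 to 0.40) and -0.14 late (-0.45 to 0.16), from a dim probe set with a mean of 4.78.

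Of the Slc1a family, Slc1a1 (EAAC1), the glutamate and cysteine transporter of neurons, changed by 0.15 early (95% interval -0.19 to 0.48) and 0.06 late (-0.26 to 0.38). Slc1a4 and Slc7a11 were not analysed here. In the Slc1a and Slc43a families none of the 4 probe sets passed a test.

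**Figure D4:**
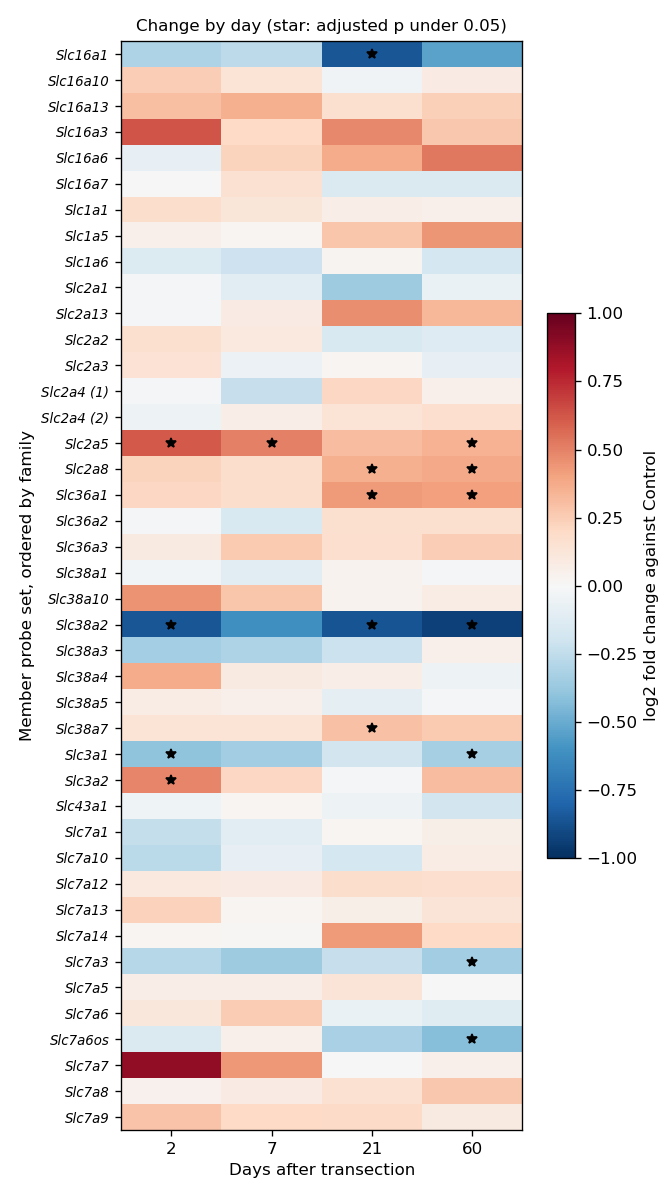
Log2 fold change of the 42 member probe sets against Control at days 2, 7, 21 and 60 (columns), with red for higher, blue for lower and a star for an adjusted p under 0.05. Slc38a2 is blue on every day, Slc2a5 red on every day, and Slc36a1 and Slc2a8 carry stars at days 21 and 60.

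The amino acid transporters known as targets of Atf4, the transcription factor that responds to amino acid shortage, did not move one way. Of 8 listed, 6 were measured, and at day 2 Slc3a2 rose and Slc38a2 fell while Slc1a5, Slc7a1, Slc7a3 and Slc7a5 passed no test. Of all probe sets 3.9% were higher and 4.98% lower at day 2. Late 1 of the 6 transporters was called, Slc38a2, which was lower, as were 12.4% of all probe sets. The median of the 6 was then 0.05 beside 0.011 for all probe sets. Of the 7 members known from the blood-brain barrier, Slc3a2 was called higher at day 2 and Slc16a1 lower late, beside those same shares of all probe sets. The medians of these 7 were -0.02 at day 2 and -0.06 late.

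Among the 13 measured genes of 15 in the Atf4 response that are no transporters, 2 were higher and 2 lower late, with a median of -0.09, beside the 8.07% and 12.4% of all probe sets. Shmt2, a mitochondrial enzyme of serine metabolism, rose by 0.89 ± 0.16 (limma, adjusted p = 0.00027) and Chac1, which breaks down glutathione, by 0.52 (adjusted p = 0.0166). Psat1, an enzyme of serine synthesis, fell by 0.79 (adjusted p = 0.0144) and the stress factor Ddit3 by 0.63 (adjusted p = 0.0104). At day 2, 2 of the 13 were lower and none higher (4.98% and 3.9% of all), Psat1 (-1.01, adjusted p = 0.0157) and Atf4 itself (-0.55, adjusted p = 0.0366).

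Of the genes through which mTORC1 senses amino acids, 16 of 21 were measured, and 4 were lower and none higher late (median -0.07), where 12.4% of all probe sets were lower and 8.07% higher. Lamtor2, a subunit of the Ragulator complex that anchors mTORC1 to the lysosome, stood lower on all 4 days, with changes from -0.70 at day 60 to -0.68 at day 21 and an adjusted p of 0.00036 late (limma). Its partner subunit Lamtor5 changed by -0.44 late (adjusted p = 0.0081), the GTPase Rragd by -0.40 (adjusted p = 0.0164) and Sesn1, of the sestrins that hold mTORC1 in check, by -0.70 (adjusted p = 0.0161). At day 60 Lamtor4, another subunit, was higher (0.38, adjusted p = 0.0132).

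Of the partners of glucose and lactate transport, 9 of 12 were measured, and none passed late. At day 60 1 of them was higher and none lower (7.2% and 9.89% of all), with a median of 0.06. Bsg (basigin), the chaperone that carries Slc16a1 to the membrane, was lower at day 2 (-0.55 ± 0.15, limma, adjusted p = 0.0147) as the 1 of 9 called then, with a median of -0.15, beside 4.98% of all lower at day 2. Ldhb, the lactate dehydrogenase subunit that favours lactate use, was lower at day 21 (-0.52, adjusted p = 0.048). Of 9 genes measured out of 12 for glutamate and glutathione handling, 2 were lower early, the transaminase Got1 (-0.99, adjusted p = 0.00056) and the glutaminase Gls2 (-0.77, adjusted p = 0.0047), with a median of -0.10 and 4.96% of all probe sets lower early, and both were lower late (-0.73 and -0.54, adjusted p = 0.003 and 0.0208). In this list 1 gene was higher and 1 lower at day 60.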

How the data were processed

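Amplified RNA of 1 animal per array was measured on 31 Affymetrix rat arrays. The authors deposited log2 values. They had dropped probe sets that Ensembl does not annotate, corrected the background, applied quantile normalization to the probes, summarised these by RMA (named without a version in the submitters' processing notes), and repeated correction and normalization on the summaries. Of 12919 probe sets, 6 Affymetrix controls were left out, and 12913 were tested. Of these, 11880 have 1 symbol in the platform annotation, 320 several and 713 none. Scanner files were not used, so these steps were not repeated, and detection of single probe sets was not assessed. The number of arrays limits the precision.

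From the log2 values, limma 3.58.1 (R 4.3.3) was used to fit 1 mean per group over the 31 arrays without covariates, and all p-values are two-sided and adjusted by Benjamini-Hochberg over all 12913 probe sets. The F-tests were called at 0.02 and contrasts at 0.05. The ± is the SE of the fit, and intervals are 95%. The level of a list is the mean of its genes, 1 probe set each (the brightest). A probe set's brightness sets its own scale, so no levels were compared between genes. Members and lists were chosen with earlier results of these data known.

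Named genes were every member called in the F-test or against Control, 11 well-known transporters called or not (9 of them measured), the 10 members with the smallest F-test p, and up to 4 genes per pathway list with the smallest p. For those 10 members each animal's value is given in Control and Spi-7, and the lowest, median and highest value in the other groups. The names of all 42 member probe sets matched RefSeq. In simulated data for the late comparison, 46.3% of probe sets changed by 0.5 were found, 90.5% of those changed by 1 and 100% of those changed by 2. Far fewer probe sets were changed there than were called late in the deposited values, so the adjusted threshold was stricter in the simulation. Alternatives were a further quantile normalization, array weights, a minimum mean of 5, an intensity trend with a robust prior, the Gapdh 3′ to 5′ gap as a covariate, a replicate block, fits of the 2 groups alone, leaving out the first 3 Spi-21 arrays, and leaving out each array. No arrays were identical. Replicate numbers were checked for pairing: of 51 pairs of arrays with the same number in different groups, 11 correlated above 0.1 (median -0.04), so the numbers were not used to pair animals.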

Additional observations from a re-analysis of the deposited data

Results flagged for a closer look

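In groups of 4 to 8 animals, 8 of the 95 tested sets of values (19 named probe sets in 5 groups) had 1 animal far from the rest by Dixon's criterion, where chance gives about 1 in 20. Slc16a1 was high in Spi-2 replicate 2 (7.03) and low in Spi-7 replicate 5 (5.98). Slc3a1 was low in Spi-2 replicate 5 (5.37), and Slc7a3 was low in Spi-7 replicate 5 (5.39). Slc7a6 was high in Control replicate 4 (8.24) and low in Spi-21 replicate 3 (7.64). Slc16a7 was low in Spi-21 replicate 3 (3.79), and Slc1a1 stood apart in Spi-21 replicate 8 (7.74). Spi-7 replicate 5 and Spi-21 replicate 3 each account for 2 of the 8.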

How the results depend on the processing

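No called change reversed its direction. Of the uncalled named changes near 0, 5 changed sign under 1 or more alternatives, each without passing the test. Leaving out 1 array gave -0.029 to 0.17 for Slc1a1 late, -0.19 to 0.0068 for Slc2a1 early, -0.070 to 0.016 for Slc2a3 late and -0.10 to 0.068 for Slc38a1 late. With the replicate block Slc1a1 late was -0.076, with the Gapdh gap as a covariate Slc2a3 early was -0.023 and Slc38a1 late -0.039, and without the first 3 Spi-21 arrays Slc38a1 late was -0.0024. The count of called members was the same or within 1.5 times of the reported one except as follows. With array weights it rose to 13 over 5 groups (from 3), 3 among days 0, 2 and 7 (from 1), 7 at day 2 (from 4), 4 at day 7 (from 1) and 8 early (from 2), while all probe sets called over 5 groups rose from 2098 to 4082. With the Gapdh gap as a covariate it was 2 at day 2, 0 at day 7, 0 at day 60 (from 7), 2 late (from 7, Slc2a8 and Slc38a2) and 1 early. Over all probe sets the calls then fell from 1146 to 768 at day 2, 334 to 190 at day 7 and 2207 to 267 at day 60. Late they fell from 2643 to 1216 and early from 1095 to 619. With a further quantile normalization the count of members was 2 at day 2 (1049 of all probe sets, from 1146). With a minimum mean of 5 it was 4 early (1155 of all, from 1095). With an intensity trend and robust prior it was 0 among days 0, 2 and 7 (318 of all, from 389). In fits of the 2 groups alone it was 0 at day 7 (524 of all, from 334) and 2 at day 21 (from 5, with 1364 of all, from 2148). Without the first 3 Spi-21 arrays it was 0 at day 21 (680 of all, from 2148). Between day 60 and day 21 it was then 1 (from 0, with 246 of all, from 9). The cause was not tested.

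Leaving out 1 array gave 2 to 5 members over 5 groups, 0 to 1 among days 0, 2 and 7, 2 to 6 at day 2, 0 to 1 at day 7, 0 to 6 at day 21, 2 to 8 at day 60, 3 to 9 late, 1 to 4 early, and none between day 60 and day 21 or day 7 and day 2. The replicate block, though the numbers did not pair the animals, gave 2 over 5 groups, 0 among days 0, 2 and 7, 3 at day 2, 0 at day 7, 3 at day 21, 4 at day 60, 6 late and 1 early. Over all probe sets it gave 25 among days 0, 2 and 7 (from 389) and 239 at day 7 (from 334). At day 21 it gave 2108 (from 2148) and at day 60 2236 (from 2207).

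Further quantile normalization turned the split of called members from 2 higher and 2 lower to 2 and 0 at day 2, from 3 and 4 to 4 and 2 at day 60, and from 4 and 3 to 5 and 2 late. The share of called probe sets that were higher went from 35.3% to 45.6% at day 7, 35.7% to 52.1% at day 21, 42.1% to 55.1% at day 60 and 39.4% to 53.6% late. Small changes may have been missed. In simulated data 46.3% of changes of 0.5 were found late, but far fewer probe sets were changed there than the 2643 called late here. The adjusted threshold was thus stricter in the simulation, and its share does not give the share missed in these data.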
